A study of Homo sapiens with 6 samples.

Results

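The 36 genes described here belong to the folding and quality control system of the endoplasmic reticulum (ER) and were followed on the polysomes of 3 established human breast cancer cell lines under low oxygen. They were chosen by symbol: ER chaperones, folding enzymes, sensors and factors of the unfolded protein response (UPR), and the machinery of ER-associated degradation (ERAD). All 36 were among the 30726 gene symbols measured. The compared groups were hypoxia, cells kept for 8 hours at 1% oxygen, and normoxia, cells kept at 21% oxygen. Each group held 1 library of SUM1315 (triple negative), 1 of SKBR3 (luminal, HER2-positive) and 1 of T47D (luminal A), all labelled wild type, so that there were 6 libraries in all. Cells of both groups received cycloheximide, which holds ribosomes on their mRNA, and the RNA sequenced came from the polysome part of a sucrose gradient. The stated purpose was to learn how hypoxia changes translation. Values are RPKM, which divide the reads of a gene by its length and by the depth of its library.

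Proteins that enter the secretory pathway fold in the ER with the help of the HSP70 chaperone BiP, lectin chaperones that bind sugar-marked proteins, and disulfide isomerases that are recharged by the oxidase ERO1, which uses oxygen. When unfolded proteins build up, the sensors IRE1 (ERN1), PERK and ATF6 switch on the UPR, which raises chaperone and ERAD genes through the transcription factors XBP1, ATF4 and cleaved ATF6. Proteins that fail to fold are trimmed by EDEM proteins, handed to the SEL1L and SYVN1 ubiquitin ligase, and pulled back to the cytosol for degradation. Secretory epithelia such as the breast depend on this system, and XBP1 is known as a gene of luminal breast cells.

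The libraries went with their labels. Summed over 7 hypoxia markers, hypoxic libraries stood at 110 (SUM1315), 347 (SKBR3) and 158 (T47D) RPKM, against 12.3, 73.4 and 15.9 RPKM in the normoxic libraries in the same order. Markers of the HER2 amplicon (5 genes) summed to 1145 to 1247 RPKM in SKBR3 and to 28.1 to 72.2 RPKM in the other lines. The 5 luminal markers summed to 384 to 550 RPKM in T47D, against 94.98 to 102 RPKM in SKBR3 and 3.34 to 4.79 RPKM in SUM1315. TFF1 was the largest part of the T47D sums (352 and 205 RPKM in hypoxia and normoxia). In SKBR3 the receptor genes ESR1 and PGR stood at 0 to 0.0370 RPKM, while FOXA1 had 27.2 and 47.2 RPKM, against 39.5 and 55.5 RPKM in T47D. The 5 mesenchymal markers summed to 1758 RPKM in hypoxic SUM1315 cells and 962 RPKM in normoxic ones, against 9.07 to 13.1 RPKM in the other lines. Of these, SPARC was near 0 in SUM1315 too (0.108 and 0.129 RPKM in hypoxia and normoxia), and VIM had 1161 RPKM in hypoxic SUM1315 cells against 407 RPKM in normoxic ones. SUM1315 is also the line with the widest hypoxia ratios of HSPA5 and HERPUD1 below, and the part of this marker shift in them was not tested. Of 10 markers of leukocytes, endothelium and stroma, PTPRC, CD3E, PECAM1, LYZ, VWF and PDGFRB stood at 0 to 0.0952 RPKM in every library. COL1A1, COL1A2, ACTA2 and CD68 brought the sum to 164 to 205 RPKM in SUM1315, against 5.31 to 7.48 RPKM in the other lines. By the smallest steps in the values, 1 RPKM on 1 kb of transcript stood for 21.7 to 33.4 reads or read pairs.

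Promoter sequence was examined first, because the UPR acts on many of these genes through short elements. The ER stress response element (ERSE, searched on both strands as CCAAT and CCACG with any 9 bases between them) binds the factor NF-Y at its CCAAT end and ATF6 at its CCACG end. It was defined on promoters of ER chaperone genes, so its presence among them is no independent observation. In RefSeq windows of GRCh38.p14, from 250 bases before to 50 bases after each start, 34 of the 36 genes had an entry, and PDIA3 and DERL1 did not. ERSE was found in 7 of the 34 windows (20.6%), against 22 of 27305 windows of all genes (0.0806%). The related ERSE-II (ATTGG and CCACG with any 1 base between them) was in 3 (8.8%), against 15 of all windows (0.0549%). ERSE-II, too, was described on a promoter of this kind, so its share here is no independent observation either. The UPR element UPRE (TGACGTGG) was in HYOU1 alone (2.9%), against 217 of all (0.795%). The core of the hypoxia response element was searched only as ACGTG, which lies inside UPRE and can overlap the CCACG end of ERSE and ERSE-II. That match was in 16 (47.1%), against 5900 of all (21.6%) and 2242 of the 7960 windows of genes tested here (28.2%). Among the windows of genes tested here, ERSE was in 12 (0.151%), ERSE-II in 11 (0.138%) and UPRE in 79 (0.992%).

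The ERSE-bearing stretches are shown because the hypoxia log2 fold changes of their genes, given further on, lay on both sides of 0. Each is written 5′ to 3′ on the strand of its gene, with the ERSE in capitals, and a copy on the opposite strand reads from CGTGG to ATTGG. The windows of HSP90B1, CANX and ERO1A overlap exons of longer transcripts in GENCODE release 29 and are given as 30 bases each.
HSPA5, chr9:125241383-125241463, minus strand: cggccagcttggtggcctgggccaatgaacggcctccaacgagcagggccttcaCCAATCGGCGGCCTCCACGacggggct
HSP90B1 upstream copy, chr12:103930209-103930238, plus strand: accctgaCCAATCGGAAGGAGCCACGcttc
HSP90B1 downstream copy, chr12:103930316-103930345, plus strand: gggtgCGTGGTGCGGCGCGATTGGtgggtt
CANX, chr5:179698773-179698802, plus strand: cccggCCAATCTTCACACTCCACGaagaat
CALR, chr19:12938369-12938414, plus strand: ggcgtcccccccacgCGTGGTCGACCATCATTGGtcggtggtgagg
CRELD2, chr22:49918539-49918584, plus strand: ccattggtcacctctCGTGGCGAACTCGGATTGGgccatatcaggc
XBP1, chr22:28800599-28800644, minus strand: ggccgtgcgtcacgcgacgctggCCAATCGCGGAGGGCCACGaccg
ERO1B, chr1:236282173-236282206, minus strand: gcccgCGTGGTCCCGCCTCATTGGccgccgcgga

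The ERSE-II genes are shown with that element in capitals, and ERO1A with its ACGTG match, which lies on the opposite strand and reads CACGT. HYOU1 carries a pair of ERSE-II copies, and its UPRE overlaps the upstream copy. A match is a run of letters and was not tested as a binding site.
HYOU1, chr11:119057265-119057400, minus strand: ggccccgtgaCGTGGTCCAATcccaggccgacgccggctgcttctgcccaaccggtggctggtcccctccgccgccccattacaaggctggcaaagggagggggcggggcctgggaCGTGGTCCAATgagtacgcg
HERPUD1, chr16:56932012-56932047, plus strand: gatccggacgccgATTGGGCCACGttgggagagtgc
SDF2L1, chr22:21642102-21642137, plus strand: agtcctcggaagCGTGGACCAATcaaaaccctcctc
ERO1A, chr14:52695655-52695684, minus strand: cgggcgccgcggCACGTccacaggctgggt

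Under hypoxia, ERO1A of disulfide formation and EDEM1 of ERAD rose on polysomes. Of the 36 genes, 34 reached 1 RPKM in at least 3 libraries and were tested, and those 2 rose while none fell (limma with the lines as blocks, Benjamini-Hochberg adjusted p under 0.05). Over all 10253 genes tested, 4.12% rose and 2.26% fell. The median log2 fold change of the 34 was 0.01, and it was -0.01 over all genes tested. At an unadjusted p under 0.05, 8 of the 34 lay higher and 3 lower in hypoxia, 11 in all (32.4%), where 2692 of all 10253 genes (26.3%) reached that p. Log2 ratios were above 0 in all 3 lines for 10 of the 34 (29.4%) and below 0 in all 3 for 7 (20.6%), where all tested genes gave 23.5% and 25.2%. A log2 fold change is that of RPKM + 1, which understates the change of genes with low values, and the lines are the only replication. RPKM are shares of the RNA sequenced, and RNA of whole lysates was not analysed here, so that mRNA amount and ribosome loading cannot be told apart. Nor can fewer cells holding a transcript and less of it per cell.

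**Figure D1:**
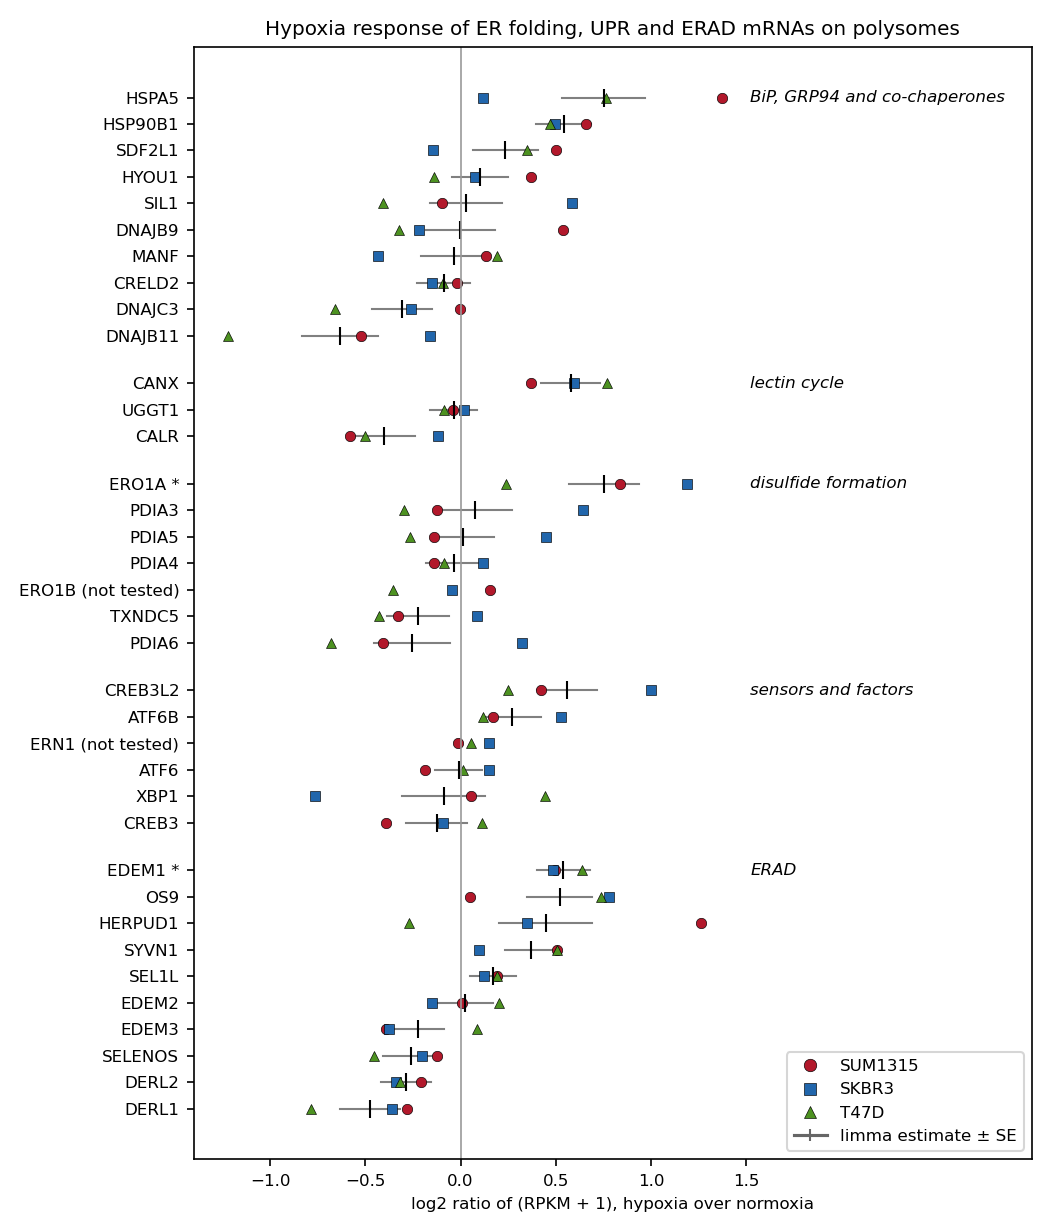
Log2 ratio of RPKM + 1, hypoxia over normoxia, for the 36 genes (down the page, by role), 1 symbol per line and the limma estimate with its SE as a bar. ERO1A and EDEM1, marked with an asterisk, passed at adjusted p under 0.05, and 17 of the 34 tested genes have symbols on both sides of 0.

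Among genes of disulfide formation, ERO1A rose. It encodes the oxidase that passes electrons from protein disulfide isomerase to oxygen, and it is known as a target of the hypoxia factor HIF1. ERO1A stood at 26.8 RPKM in hypoxic SUM1315 cells against 14.6 RPKM in normoxic ones, at 9.81 and 3.75 RPKM in hypoxic and normoxic SKBR3 cells, and at 12.0 and 10.1 RPKM in hypoxic and normoxic T47D cells. The hypoxic library was thus the higher of each pair, by 1.84-fold in SUM1315, 2.62-fold in SKBR3 and 1.20-fold in T47D, although the ranges of the oxygen groups overlapped across lines. The log2 fold change was 0.75 ± 0.18 (SE, n = 3 lines, adjusted p = 0.0411). The call was lost without SKBR3 (0.54 ± 0.19, adjusted p = 0.114) and with median-ratio scaling (adjusted p = 0.0519). The gene lies at 52639916 to 52695900 on chromosome 14 (GRCh38, minus strand).

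Its paralog ERO1B was too low to test. It stood at 0.840 (SUM1315), 0.762 (SKBR3) and 1.45 (T47D) RPKM in hypoxia, against 0.653, 0.816 and 2.13 RPKM in normoxia. Per kilobase, ERO1A was above ERO1B in every library, and the log2 ratios of ERO1B were small and of mixed sign (0.15, -0.04 and -0.35).

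None of the 5 disulfide isomerases passed (limma, none at an unadjusted p under 0.05, reached by 26.3% of all genes tested). Their direction was not the same in each line. PDIA3 (ERp57), which works with the lectin chaperones, had 26.1, 61.8 and 24.6 RPKM in hypoxic SUM1315, SKBR3 and T47D cells, against 28.5, 39.3 and 30.5 RPKM in the normoxic ones. PDIA6 (P5), an isomerase known to act on the UPR sensors, had 55.1, 75.4 and 15.2 RPKM in hypoxia, against 73.4, 60.1 and 24.9 RPKM in normoxia. In each of PDIA3, PDIA4, PDIA5, PDIA6 and TXNDC5 the hypoxic library was the higher in SKBR3 and the lower in SUM1315 and T47D. Their fold changes over the lines ran from -0.26 ± 0.20 (PDIA6, adjusted p = 0.432) to 0.07 ± 0.19 (PDIA3, adjusted p = 0.831). Reads of PDIA3 are uncertain where they also match its pseudogene PDIA3P1, listed at 2.04 to 3.11 RPKM. PDIA3 also shares exon sequence with the antisense gene ELL3, and whether reads were counted by strand is not stated. ELL3 had 1.15, 8.89 and 8.71 RPKM in hypoxic SUM1315, SKBR3 and T47D cells, against 0.764, 10.6 and 24.9 RPKM in normoxic ones. Values of PDIA5 (2.31 to 9.40 RPKM) are uncertain too, as it shares exon sequence on the same strand with SEC22A (3.26 to 10.0 RPKM).

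BiP and GRP94, the main chaperones of the ER lumen, stood higher in hypoxia in all lines without passing the threshold. HSPA5, which encodes BiP, had 88.5 RPKM in hypoxic SUM1315 cells against 33.6 RPKM in normoxic ones, 35.8 and 20.7 RPKM in hypoxic and normoxic T47D cells, and 21.2 and 19.4 RPKM in hypoxic and normoxic SKBR3 cells. The difference was thus large in SUM1315 (2.63-fold), moderate in T47D (1.73-fold) and close to none in SKBR3 (1.09-fold). Its log2 fold change was 0.75 ± 0.22 (adjusted p = 0.0655), and without SKBR3 it passed (1.07 ± 0.20, adjusted p = 0.0231). In limma without SUM1315 the fold change of HSPA5 was 0.44 ± 0.25 (adjusted p = 0.301), and without T47D it was 0.75 ± 0.25 (adjusted p = 0.152). HSP90B1, which encodes GRP94, was more even over the lines, with 34.9, 36.9 and 23.1 RPKM in hypoxic SUM1315, SKBR3 and T47D cells against 21.8, 25.8 and 16.4 RPKM in normoxic ones. Its log2 fold change was 0.54 ± 0.15 (adjusted p = 0.0551).

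Partners of BiP had other signs and sizes. DNAJB11 (ERdj3), a J-domain co-chaperone that hands unfolded proteins to BiP, was lower in each hypoxic library. Its RPKM were 13.2, 26.9 and 23.0 in hypoxic SUM1315, SKBR3 and T47D cells, against 19.5, 30.1 and 54.9 in normoxic cells. The log2 fold change was -0.63 ± 0.20 (adjusted p = 0.0821), with the widest gap in T47D, and it passed without SKBR3 (-0.87 ± 0.20, adjusted p = 0.0386). DNAJC3 (p58IPK), another J-domain partner, had -0.31 ± 0.16 (adjusted p = 0.243), and its level was alike in hypoxic and normoxic SUM1315 cells (8.39 and 8.41 RPKM) but 2.25 and 4.12 RPKM in hypoxic and normoxic T47D cells. DNAJB9 (ERdj4), which restrains IRE1, was higher in hypoxic SUM1315 cells (8.57 against 5.59 RPKM in normoxia) and lower in hypoxic SKBR3 (17.6 against 20.7 RPKM) and T47D cells (5.62 against 7.28 RPKM), and its fold change over the lines was -0.0019 ± 0.18 (adjusted p = 0.995).

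None of the other proteins of the BiP cycle passed. HYOU1 (GRP170), an exchange factor of BiP, had 0.10 ± 0.15, and the exchange factor SIL1 had 0.03 ± 0.19, with 10.2 RPKM in hypoxic against 6.47 RPKM in normoxic SKBR3 cells and the opposite order in T47D (6.69 against 9.19 RPKM). SDF2L1, a partner of ERdj3 and the most abundant of the 36 in hypoxic SUM1315 cells (282 against 199 RPKM in normoxia), had 0.24 ± 0.17. The ER and secreted proteins MANF (-0.04 ± 0.17) and CRELD2 (-0.09 ± 0.14) were slightly below 0, and adjusted p of these 5 ran from 0.399 to 0.937.

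**Figure D2:**
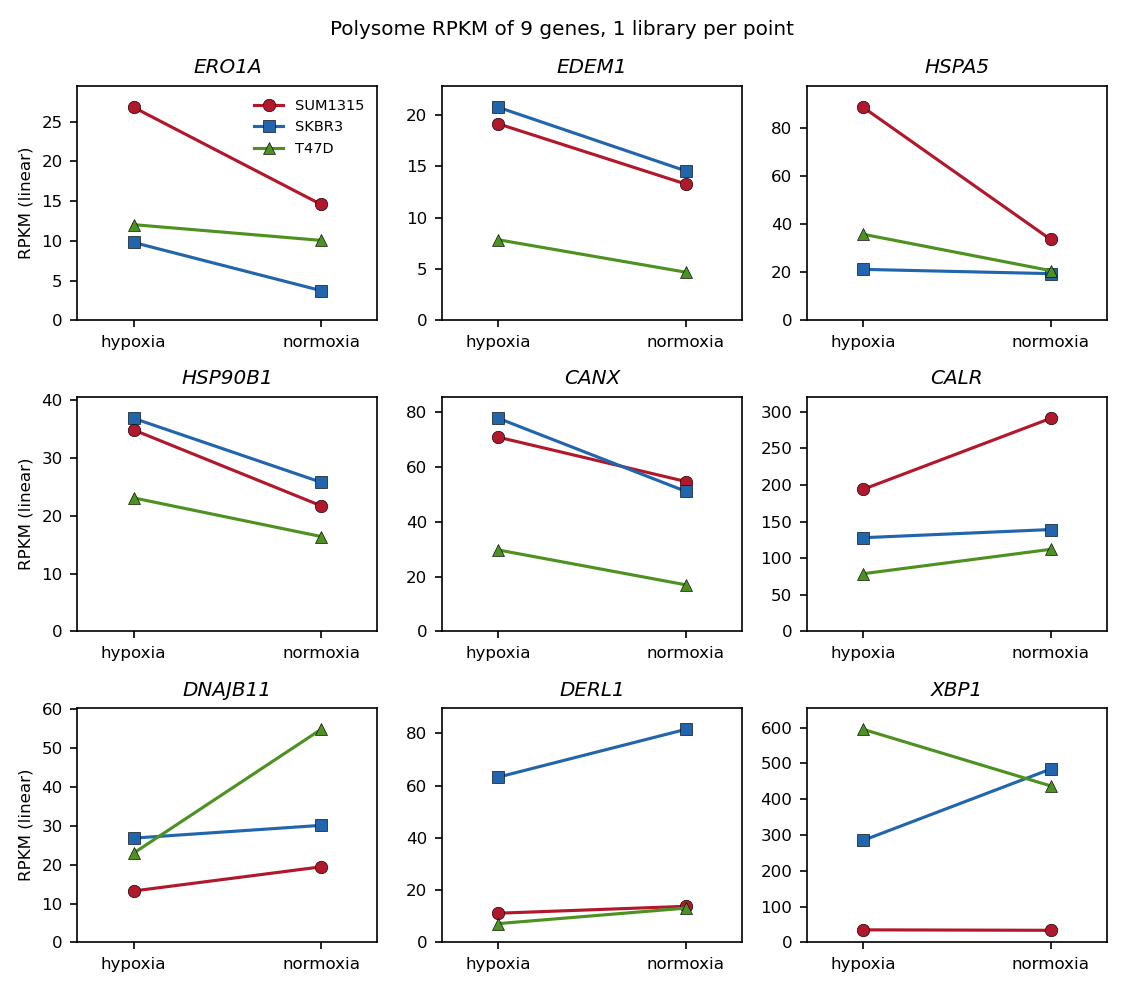
RPKM (linear axes from 0) of 9 genes in each library, with hypoxia left of normoxia and a line joining the libraries of a cell line. ERO1A, EDEM1, HSPA5, HSP90B1 and CANX are higher in the hypoxic library of every line, CALR, DNAJB11 and DERL1 are lower, and XBP1 goes both ways.

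The lectin chaperones calnexin and calreticulin had fold changes of opposite sign. Calnexin (CANX), which sits in the membrane, had 70.8, 77.6 and 29.7 RPKM in hypoxic SUM1315, SKBR3 and T47D cells, against 54.6, 51.0 and 17.0 RPKM in normoxia. Calreticulin (CALR), its soluble relative, had 194, 128 and 78.8 RPKM in hypoxia, against 291, 139 and 112 RPKM in normoxia. In every line, therefore, the hypoxic library was the higher for CANX and the lower for CALR. Neither passed: the log2 fold change was 0.58 ± 0.16 for CANX (adjusted p = 0.0549) and -0.40 ± 0.16 for CALR (adjusted p = 0.151). UGGT1, which marks unfolded glycoproteins for another round with these lectins, had -0.04 ± 0.12 (adjusted p = 0.874).

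No UPR sensor or factor passed (limma, 1 of 5 tested at an unadjusted p under 0.05, reached by 26.3% of all genes tested). CREB3L2 (BBF2H7), a membrane-bound factor known for the secretory load of cartilage in mice, came nearest, with 3.81, 8.57 and 1.42 RPKM in hypoxic SUM1315, SKBR3 and T47D cells against 2.59, 3.79 and 1.04 RPKM in normoxic cells. Its log2 fold change was 0.56 ± 0.16 (adjusted p = 0.0627), and it passed without SUM1315 (0.62 ± 0.19, adjusted p = 0.0257). ATF6 (-0.01 ± 0.12), its paralog ATF6B (0.27 ± 0.15) and CREB3 (-0.12 ± 0.16) had adjusted p of 0.271 to 0.970. ERN1, the mRNA of IRE1, was below the filter, at 0.560, 1.38 and 0.476 RPKM in hypoxic and 0.573, 1.15 and 0.424 RPKM in normoxic SUM1315, SKBR3 and T47D cells.

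XBP1 went in opposite directions in the luminal lines. It had 285 RPKM in hypoxic against 484 RPKM in normoxic SKBR3 cells, and 595 RPKM in hypoxic against 437 RPKM in normoxic T47D cells. In SUM1315 the values were 35.1 and 33.8 RPKM in hypoxia and normoxia. The log2 fold change over the lines was -0.09 ± 0.22 (adjusted p = 0.820). Gene-level RPKM do not separate the XBP1 mRNA spliced by IRE1 from the unspliced one.

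In ERAD, EDEM1 rose. It encodes a mannosidase-related protein that marks misfolded glycoproteins for disposal, and it is a known target of XBP1. EDEM1 had 19.1, 20.7 and 7.84 RPKM in hypoxic SUM1315, SKBR3 and T47D cells, against 13.3, 14.5 and 4.69 RPKM in normoxic cells. The step was of like size in each line, at 1.44-, 1.43- and 1.67-fold in the same order. The log2 fold change was 0.54 ± 0.14 (adjusted p = 0.0489), just inside the threshold. The call was lost without SUM1315 (0.56 ± 0.22, adjusted p = 0.114), without SKBR3 (0.57 ± 0.15, adjusted p = 0.0621) and without T47D (0.49 ± 0.18, adjusted p = 0.193), while the fold change stayed within 0.49 to 0.57. EDEM1 lies at 5187646 to 5219957 on chromosome 3 (GRCh38, plus strand) and shares exon sequence with the antisense gene AC026202.3, which had 2.36, 3.14 and 1.05 RPKM in hypoxic SUM1315, SKBR3 and T47D cells against 1.07, 2.08 and 0.532 RPKM in normoxic ones. Whether reads were counted by strand is not stated, so reads of these genes cannot be told apart.

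Its relatives and the ligase complex did not pass. The mannosidases EDEM2 (0.02 ± 0.15) and EDEM3 (-0.23 ± 0.14) had adjusted p of 0.942 and 0.318. OS9, a lectin that reads trimmed sugars, had 15.4 and 12.2 RPKM in hypoxic SKBR3 and T47D cells, against 8.55 and 6.93 RPKM in normoxia, but 6.47 and 6.22 RPKM in hypoxic and normoxic SUM1315 cells. Its log2 fold change was 0.52 ± 0.17 (adjusted p = 0.0920), and it passed without SUM1315 (0.76 ± 0.22, adjusted p = 0.0235). OS9 did not pass without SKBR3 or without T47D. The ligase SYVN1 (HRD1) had 0.37 ± 0.14 (adjusted p = 0.124) and its adaptor SEL1L 0.17 ± 0.12 (adjusted p = 0.392), each above 0 in all lines. SYVN1 values of 1.72 to 4.94 RPKM are uncertain, as the gene shares exon sequence on the same strand with FAU, at 313 to 825 RPKM.

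HERPUD1, a stress-induced partner of HRD1, had the widest spread of log2 ratios over the lines among the 36. Its level was 41.8 RPKM in hypoxic SUM1315 cells against 16.9 RPKM in normoxic ones, 60.2 against 47 RPKM in SKBR3, and 4.88 against 6.10 RPKM in T47D. The log2 ratios were 1.26, 0.35 and -0.27, and the fold change over the lines was 0.45 ± 0.24 (adjusted p = 0.273).

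Of the retrotranslocation step, DERL1, DERL2 and SELENOS were lower in the hypoxic library of every line and did not pass. DERL1, a derlin of the channel, had 11.2, 63.3 and 7.21 RPKM in hypoxic SUM1315, SKBR3 and T47D cells against 13.8, 81.6 and 13.1 RPKM in normoxic ones (log2 fold change -0.48 ± 0.16, adjusted p = 0.0952). DERL2 had 5.51, 4.81 and 5.67 RPKM in hypoxia against 6.51, 6.34 and 7.31 RPKM in normoxia (-0.29 ± 0.13, adjusted p = 0.197). SELENOS (VIMP), which links the ATPase VCP to derlins, had -0.26 ± 0.15 (adjusted p = 0.288). For DERL2 the hypoxic values lay below every normoxic value, and for DERL1 and SELENOS the oxygen groups overlapped across lines. SEL1L also separated, the other way and narrowly (2.95 RPKM or more in hypoxia, 2.94 RPKM or less in normoxia). The share of all genes that separate so was not counted.

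Set beside the promoter elements shown above, the ERSE genes lay on both sides of 0. HSPA5 (0.75), CANX (0.58) and HSP90B1 (0.54) had positive log2 fold changes, XBP1 (-0.09) and CRELD2 (-0.09) lay near 0, and CALR (-0.40) was negative. The ERSE-II genes had 0.45 (HERPUD1), 0.24 (SDF2L1) and 0.10 (HYOU1). The 16 genes with an ACGTG match ran from -0.31 (DNAJC3) to 0.75 (ERO1A), with 9 above and 7 below 0. ERO1A was the 1 that passed, beside 4.12% of all genes tested that rose and 2.26% that fell. The ERO1A match lay 114 to 110 bases upstream of the start, and EDEM1, which also rose, had none of the 4 motifs, as searched, in its window.

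**Figure D3:**
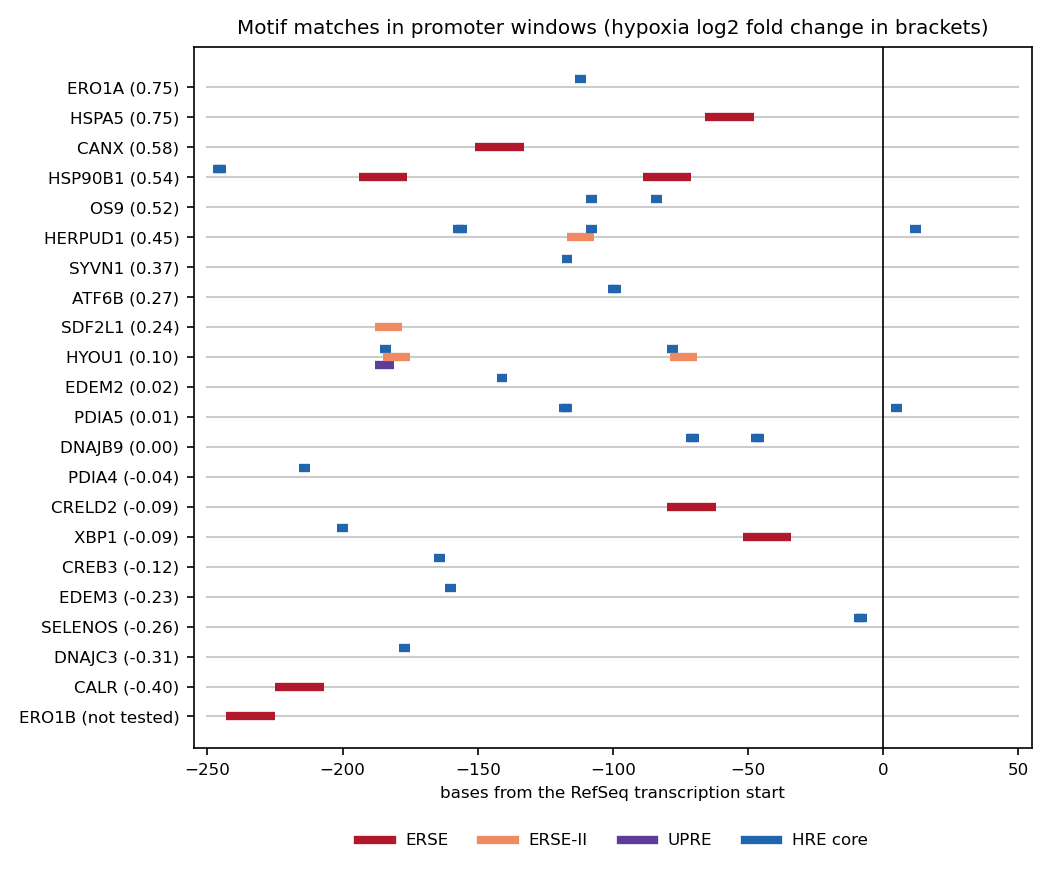
Positions of motif matches on either strand, in bases from the RefSeq start (vertical line), in the windows of the 22 genes with a match. Genes run down the page from the largest to the smallest hypoxia log2 fold change, given in brackets, and ERSE matches (red) occur in genes from 0.75 (HSPA5) to -0.40 (CALR).

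Further genes of the secretory pathway were taken from lists of their own, in the same fit. Of 34 genes of ER import and N-glycosylation none passed, where 4.12% of all genes tested rose and 2.26% fell. At an unadjusted p under 0.05 (limma) lay 6 of the 34, where 26.3% of all genes tested did. The median log2 fold change of the list was -0.11. SEC61G, a subunit of the translocon, was highest at 0.68 ± 0.19 (adjusted p = 0.0627), and SRPRB, a subunit of the signal recognition particle receptor, lowest at -0.54 ± 0.15 (adjusted p = 0.0576). SRP54 (0.30 ± 0.12) and SRP19 (-0.47 ± 0.15) came next at either end. Of 35 other ER folding genes tested, 1 rose and 1 fell, counts to be read against the 4.12% and 2.26% of all genes that did. PRKCSH, the regulatory subunit of glucosidase II, which trims glucose so that lectins can bind, rose by 1.00 ± 0.16 (adjusted p = 0.00957). Its RPKM were 38.6, 32.9 and 26.3 in hypoxic SUM1315, SKBR3 and T47D cells, against 20.9, 18.1 and 9.85 in normoxic cells. The oxygen groups did not overlap, but the share of all genes that separate so was not counted. The thioredoxin-related TMX2 fell, with -0.65 ± 0.15 (adjusted p = 0.0352). QSOX1, a sulfhydryl oxidase, had 0.66 ± 0.28 (adjusted p = 0.176), and calumenin (CALU) had -0.70 ± 0.19 (adjusted p = 0.0525). The log2 ratios of QSOX1 were -0.47, 1.18 and 1.27 in SUM1315, SKBR3 and T47D.

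Among 35 other ERAD genes tested, 2 rose and 1 fell, again beside shares of 4.12% and 2.26% over all genes. BAG6, a holdase for proteins leaving the ER, rose by 0.78 ± 0.16 (adjusted p = 0.0220), and the ligase MARCHF6 by 0.56 ± 0.12 (adjusted p = 0.0301). NPLOC4, the cofactor by which VCP grips ubiquitinated proteins, fell to 16.5, 9.84 and 7.01 RPKM in hypoxic SUM1315, SKBR3 and T47D cells, against 27.9, 15.6 and 14.4 RPKM in normoxic ones (-0.76 ± 0.15, adjusted p = 0.0186). The ligase RNF5 had 0.60 ± 0.16 (adjusted p = 0.0504), and FOXRED2 had -0.49 ± 0.19 (adjusted p = 0.148). In the PERK and ATF4 arm 1 of 14 rose, beside the same shares: PPP1R15A (GADD34), which reverses the phosphorylation of eIF2alpha, by 0.80 ± 0.15 (adjusted p = 0.0189). DDIT3 (CHOP) had 24.6, 2.34 and 25.6 RPKM in hypoxic SUM1315, SKBR3 and T47D cells, against 7.44, 1.78 and 17.1 RPKM in normoxia (0.80 ± 0.23, adjusted p = 0.0612), so that, as for HSPA5 and HERPUD1, its widest ratio was that of SUM1315. TRIB3 (-0.31 ± 0.24) and EIF2S1 (-0.33 ± 0.18) lay lowest in that arm. Their log2 ratios in SUM1315, SKBR3 and T47D were 0.39, -1.08 and -0.23 (TRIB3) and -0.21, 0.05 and -0.84 (EIF2S1).

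None of 18 other UPR regulators and none of 5 ER-phagy receptors passed, beside the 4.12% and 2.26% of all genes. At an unadjusted p under 0.05 (limma) lay 2 and 1 of them, where 26.3% of all genes tested did. The median log2 fold change was -0.06 in either list. RTCB, the ligase that joins XBP1 exons, had 0.37 ± 0.18 (adjusted p = 0.234) and WFS1 0.34 ± 0.13 (adjusted p = 0.143), while NFYC, a subunit of NF-Y, had -0.35 ± 0.13 (adjusted p = 0.138) and the protease gene MBTPS2, whose product cleaves ATF6, -0.33 ± 0.16 (adjusted p = 0.224). Log2 ratios in SUM1315, SKBR3 and T47D were 0.07, 0.94 and 0.09 for RTCB and -0.18, -0.0037 and -0.81 for MBTPS2. Of the ER-phagy receptors, SEC62 had -0.41 ± 0.18 and TEX264 -0.09 ± 0.14, while ATL3 (0.07 ± 0.14) and RETREG1 (0.02 ± 0.14) were highest.

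More of the genes passed between lines than between oxygen levels. With oxygen as a term in the fit, 12 of the 34 genes were higher and 11 lower in SUM1315 than in the mean of SKBR3 and T47D, where 42.5% and 29.1% of all genes tested were. The median log2 difference was 0.14 for the 34 and 0.19 for all genes, so values below are to be read against that shift. SKBR3 had 18 genes higher and 5 lower than T47D, where 26.6% and 31.2% of all genes were, with a median of 0.49 for the 34 and -0.05 for all. The tests rest on the libraries of a line at either oxygen level, 1 line of each kind, and describe these lines and not their subtypes.

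XBP1 and PDIA4 set SUM1315 apart. XBP1 stood at 35.1 and 33.8 RPKM in SUM1315, against 285 and 484 RPKM in SKBR3 and 595 and 437 RPKM in T47D (hypoxia and normoxia), a log2 difference of -3.62 ± 0.23 (adjusted p = 3.64e-07). It was the most abundant of the 36 in each library of the luminal lines, and SKBR3 minus T47D gave -0.46 ± 0.27, within the spread (adjusted p = 0.164). PDIA4 (ERp72), a disulfide isomerase, stood at 64.8 and 71.4 RPKM in SUM1315, against 14.5 and 13.3 RPKM in SKBR3 and 7.87 and 8.42 RPKM in T47D (2.57 ± 0.15, adjusted p = 2.49e-07). Also higher in SUM1315 were the BiP partners MANF (1.20 ± 0.18) and SDF2L1 (1.01 ± 0.18), BiP itself (HSPA5, 1.18 ± 0.23), ERO1A (1.17 ± 0.20), PDIA5 (1.12 ± 0.17) and CALR (1.08 ± 0.17). HYOU1 (-1.07 ± 0.16), DNAJB11 (-0.94 ± 0.21) and CRELD2 (-0.92 ± 0.15) were lower there. Adjusted p of these 9 ran from 0.000155 to 0.0024. Without an expression filter the calls of HSPA5 (adjusted p = 0.0661) and DNAJB11 (adjusted p = 0.0782) were lost. The gap of HSPA5 was wider in hypoxia (88.5 RPKM in SUM1315 against 21.2 in SKBR3 and 35.8 in T47D) than in normoxia (33.6 against 19.4 and 20.7 RPKM). SUM1315 is also the line with the mesenchymal and stromal marker levels given above, and their part in these differences was not tested.

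Between SKBR3 and T47D the 2 widest gaps were those of ERAD genes. HERPUD1 stood at 60.2 and 47 RPKM in hypoxic and normoxic SKBR3 cells, against 4.88 and 6.10 RPKM in T47D (log2 difference 3.07 ± 0.30, adjusted p = 1.87e-05). DERL1 stood at 63.3 and 81.6 RPKM in SKBR3, against 7.21 and 13.1 RPKM in T47D (2.76 ± 0.19, adjusted p = 2.20e-06), and SUM1315 was near T47D at 11.2 and 13.8 RPKM. Higher in SKBR3 as well were DNAJC3 (1.79 ± 0.19), PDIA6 (1.74 ± 0.24), CREB3L2 (1.61 ± 0.19), CANX (1.45 ± 0.19), DNAJB9 (1.44 ± 0.22), EDEM1 (1.37 ± 0.17) and UGGT1 (1.20 ± 0.15). The 5 genes lower in SKBR3 than in T47D were ATF6B (-0.84 ± 0.18), ERO1A (-0.75 ± 0.23), CREB3 (-0.66 ± 0.20), SDF2L1 (-0.65 ± 0.21) and SELENOS (-0.54 ± 0.18). Without an expression filter the calls of ERO1A, CREB3, SDF2L1 and SELENOS were lost (adjusted p = 0.169, 0.0768, 0.130 and 0.0615), and without an oxygen term those of ERO1A, SDF2L1 and SELENOS (adjusted p = 0.186, 0.0719 and 0.0919). SEL1L, with 2.50 to 3.50 RPKM in all libraries, and DERL2 and SIL1 passed in neither comparison of lines.

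**Figure D4:**
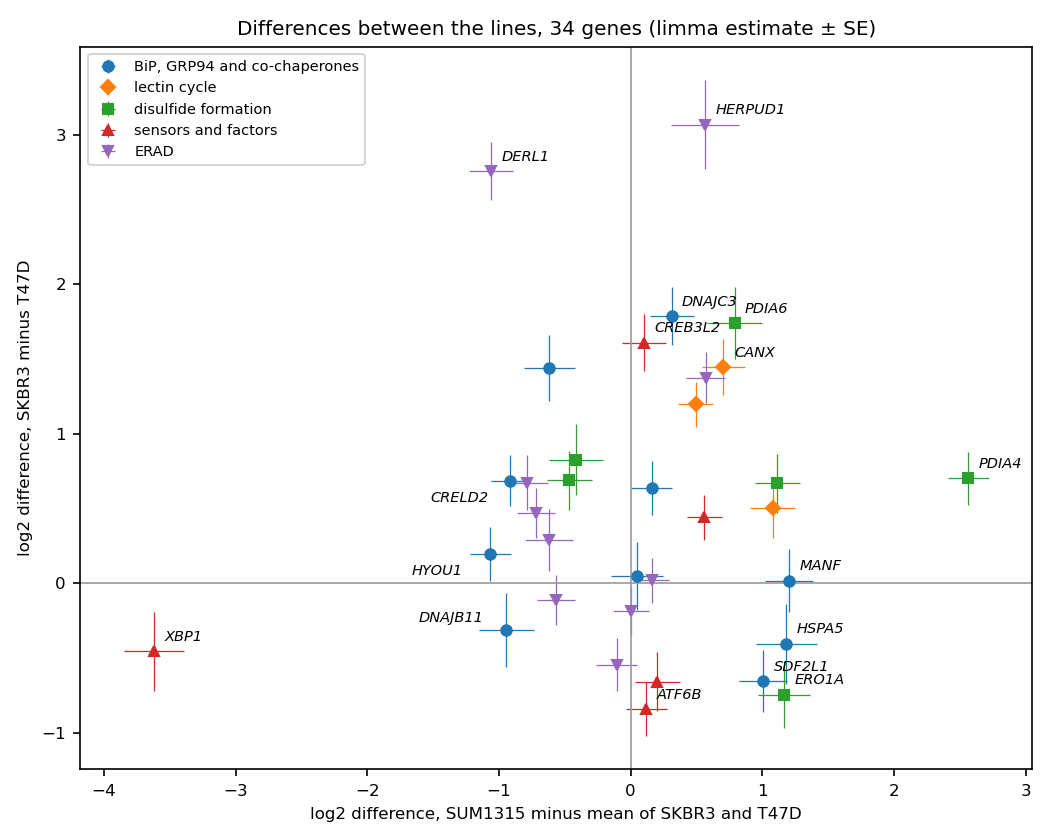
Log2 difference between lines for the 34 tested genes, SUM1315 minus the mean of SKBR3 and T47D (horizontal) and SKBR3 minus T47D (vertical), as limma estimates with SE bars and symbols by role. XBP1 lies far left at -3.62 and PDIA4 far right at 2.57, and the ERAD genes HERPUD1 and DERL1 lie at the top at 3.07 and 2.76.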

How the data were processed

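Per the labels, RNA was taken from polysome fractions and 1 library was made for each line and oxygen level. Build GRCh38 (hg38) and the tools HISAT2, Trimmomatic, Partek and SAMtools come from the submitters' processing notes. For versions, annotation and strand setting, nothing was given in those sources. The deposited RPKM table has no unit in its header. The values were taken to be RPKM, and their steps were examined. In genes with 1 GENCODE release 29 transcript, 66.3% to 70.9% of 3000 low values times length were whole multiples of 1 step per library (tolerance 0.02 of a step). Such a step shows scaling by length and by library, and does not by itself name the unit. The 10253 genes that reached 1 RPKM in 3 or more libraries were fitted with limma 3.58.1 (R 4.3.3) on log2(RPKM + 1) values (mean-variance trend, two-sided, Benjamini-Hochberg over all of them). Terms were cell line and oxygen level, so that the line is the block for hypoxia. Deviations of a line's libraries from the oxygen group means correlated at 0.97 (SUM1315) and 0.94 (SKBR3 and T47D). Residual degrees of freedom were 2 and prior ones 8.02, so that most of an SE comes from the spread shared over genes. A ratio within a line compares single libraries and was not tested. The labels do not say that lines stand for separate replicate cultures.

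All 36 genes were named whatever their values, and of each other list those past the threshold and the pair at each end. The 36 genes, the lists, the motifs and the tests were chosen with earlier results of these data known. Pieces of exon shared with another GENCODE gene occurred in 20 of the 36 genes, on the same strand in 6. Motifs were searched in RefSeq promoter windows with Python 3.11.15. Figures were drawn with matplotlib 3.10.9. Alternatives tried were other pseudocounts, expression filters, scaling, no trend, no block or oxygen term, and leaving out each line. Counting floors cover counting error only: 3 reads on 1 kb stand for 0.0898 to 0.138 RPKM.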

Additional observations from a re-analysis of the deposited data

Results flagged for a closer look

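In 7 genes the hypoxia log2 ratio was at least 0.25 in one line and at most -0.25 in another. That limit was set after the values were known, and the share of all genes that met it was not counted. Without the limit, signs were mixed over the lines in 17 of the 34 tested genes and in 5262 of all 10253. The gap between the opposed lines of a gene was 1.54 for HERPUD1 and 0.86 for DNAJB9, each SUM1315 minus T47D. It was 1.00 for PDIA6, 0.99 for SIL1, 0.94 for PDIA3 and 0.71 for PDIA5, each SKBR3 minus T47D. For XBP1 it was 1.21, T47D minus SKBR3. With 1 library per line and oxygen level, none of these differences between lines could be tested.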

How the results depend on the processing

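The hypoxia calls depended on the processing. Against 2 of the group and 422 of all genes higher in hypoxia, a pseudocount of 5 gave 0 and 171, no expression filter 0 and 0 of 27552, median-ratio scaling 1 and 396, and no trend 4 and 388. At an unadjusted p under 0.05, limma gave 11 of the group with that pseudocount (2503 of all 10253 genes) and 6 without the filter (2715 of 27552). Of 7547 genes at 1 RPKM or more in all 6 libraries, 6 of the group rose (ERO1A, EDEM1, HSPA5, HSP90B1, CANX, CREB3L2) and 1 fell (DNAJB11), where 499 of all genes rose and 459 fell. With no replicate block, that is without pairing by line, 0 rose in the group and 0 of all genes (0 and 68 at an unadjusted p under 0.05). With a line left out, 1 to 3 rose and 0 to 1 fell: without SUM1315 3 and 0 (all genes 552 and 271), without SKBR3 1 and 1 (459 and 192), and without T47D 1 and 0 (179 and 53). No gene called under hypoxia changed direction in these fits. Adjusted p without pairing was 1.00 for ERO1A, EDEM1, HSPA5, CREB3L2, DNAJB11 and OS9, and the lowest over the alternatives was 0.0145, 0.0280, 0.0231, 0.0218, 0.0386 and 0.0235 in that order. Between lines, the 12 higher and 11 lower in SUM1315 became 10 and 6 without the filter (6385 and 4252 of 27552 genes in all). The 18 higher and 5 lower in SKBR3 than T47D became 14 and 1 without the filter (2635 and 3472 in all) and 14 and 2 without an oxygen term (1970 and 2412 of 10253). The SUM1315 contrast with SKBR3 or T47D left out compares it with 1 line. Without SKBR3 it gave 16 genes higher and 8 lower (all genes 4141 and 3223), and without T47D 9 and 15 (4270 and 2877). There the log2 difference ran from -1.34 to 0.10 for DNAJB9, -2.44 to 0.32 for DERL1, -0.58 to 1.20 for DNAJC3, -0.018 to 1.43 for CANX, -0.10 to 1.09 for UGGT1, -0.081 to 1.66 for PDIA6, -0.70 to 0.91 for CREB3L2, -0.12 to 1.26 for EDEM1 and -0.97 to 2.10 for HERPUD1, since SKBR3 and T47D lie on either side of SUM1315.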
